A study of Homo sapiens with 6 samples.

Results

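The annexins are a family of membrane-binding proteins, and 10 of their genes, ANXA1 to ANXA7, ANXA9, ANXA10 and ANXA11, were taken by symbol from a table of 58302 genes, of which 19847 were protein-coding. Their mRNAs were followed in SW480 and DLD-1, 2 epithelial lines of human colorectal cancer (CRC), both given as wild type, untreated and grown in DMEM. The paper describes both lines as mutant for p53. To find the RNAs held by the acetyltransferase NAT10 and those modified with N4-acetylcytidine (ac4C), 6 libraries were sequenced, 1 for each group. Each line gave an Input of total RNA, an immunoprecipitate made with a NAT10 antibody (RIP-seq) and an immunoprecipitate of RNA fragments made with an ac4C antibody (acRIP-seq). There were no replicates, so that every difference compares libraries and not conditions, and no test between groups could be made. The Inputs of both lines are given once more in a table that came with the acRIP-seq data, read here as FPKM and called the acRIP table. Its columns were matched to the same Input samples, so that likeness between the tables is no independent repeat.

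An annexin binds phospholipid membranes when calcium is bound to the repeats of its conserved core, while the N-terminal tail differs between members and carries the sites for partner proteins. The family takes part in membrane repair, vesicle traffic and the organisation of the cell surface. In the intestinal epithelium several annexins lie along the cell membrane, and some bind S100 proteins through the tail.

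Promoter sequences of 3 members are printed here because these members stood at the extremes of the data. ANXA2 had the highest value of the family in every library, ANXA6 differed most between the lines, and ANXA10 was listed at 0 in every library. Each run holds the 200 bases before the annotated start, 5′ to 3′ on the strand of the gene, from RefSeq on GRCh38.p14, with CpG dinucleotides in capitals. They lie at chr15:60397987-60398186 (minus strand, ANXA2), chr5:151157780-151157979 (minus strand, the outer of 2 annotated starts of ANXA6) and chr4:168092337-168092536 (plus strand, ANXA10).
ANXA2: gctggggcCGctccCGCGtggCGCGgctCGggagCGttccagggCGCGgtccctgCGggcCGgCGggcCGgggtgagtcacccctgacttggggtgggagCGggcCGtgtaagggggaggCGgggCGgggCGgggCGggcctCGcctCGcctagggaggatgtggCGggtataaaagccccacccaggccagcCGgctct
ANXA6: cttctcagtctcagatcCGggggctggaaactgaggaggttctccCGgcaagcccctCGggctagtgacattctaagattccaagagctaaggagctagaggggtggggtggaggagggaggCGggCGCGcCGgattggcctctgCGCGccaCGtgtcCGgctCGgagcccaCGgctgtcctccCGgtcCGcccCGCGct
ANXA10: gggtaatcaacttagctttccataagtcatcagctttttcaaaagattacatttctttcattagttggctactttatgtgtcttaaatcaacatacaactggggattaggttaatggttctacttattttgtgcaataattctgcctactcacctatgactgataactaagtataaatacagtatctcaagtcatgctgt

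The ANXA2 window held 23 CpGs at a GC content of 77.5%, the ANXA6 window 17 CpGs at 67.0%, and the ANXA10 window no CpG at 33.0%. RefSeq gave 14 such windows for the 10 members. Over 35116 windows of 27305 genes the median was 9 CpGs and 59.0% GC. ANXA1, which was well expressed in both lines, also had no CpG in its window (40.5% GC), so that a window without CpGs was found both in a member with high values and in the member listed at 0. The letters TATAAA, searched on both strands, were present in 4 of the 14 windows (ANXA1, ANXA2, ANXA10 and 1 of 3 windows of ANXA11), against 8.59% of all windows. Counts of CpGs and letters describe these windows only.

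The libraries did not pair by label. On the log2(FPKM + 1) scale and over 16196 protein-coding genes, the SW480-labelled RIP library had r = 0.871 to the Input of its own label and r = 0.944 to that of DLD-1. The DLD-1-labelled RIP library had r = 0.856 to its own Input and r = 0.951 to the Input labelled SW480. With the acRIP table the order of the Inputs was the same (r = 0.859 and 0.934 for the RIP library labelled SW480, and 0.850 and 0.942 for that labelled DLD-1). These values are descriptions across genes, which share library and depth. Libraries are therefore named by their labels, and each RIP value is given over both Inputs. The libraries of the RIP table held at least 25513735 reads (RIP labelled SW480), 11314807 (Input labelled SW480), 20962734 (RIP labelled DLD-1) and 10771186 (Input labelled DLD-1). All 8 epithelial markers examined (EPCAM, CDH1, keratins and others) were above 0 in every library, with sums from 939 to 3392 FPKM. VIL1 was the lowest of them, at 0.261 FPKM in the Input and 0.687 in the RIP library labelled DLD-1. The 6 mesenchymal or endothelial markers summed to 0.482 to 2.37 FPKM, and the 4 blood markers to at most 0.0632. Of the mesenchymal markers PDGFRB reached 2.02 FPKM in the Input labelled DLD-1, above VIL1 there. In such bulk RNA, fewer cells of a type and less RNA per cell cannot be told apart.

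FPKM counts fragments per unit of transcript length and library size, so it allows genes to be compared within a library. The 10 annexins summed to 507 FPKM in the Input labelled SW480 and 584 in the Input labelled DLD-1, and to 736 and 723 in the RIP libraries. In the acRIP table the sums were 276 and 297. All members except ANXA10 were above 1 FPKM in all 6 columns, ANXA2 ranked first in each of them, and its share of the annexin sum lay between 26.4% and 33.8%. The ranking below ANXA2 differed between libraries, mainly through ANXA6, which was second in both Inputs labelled DLD-1 but sixth and seventh in those labelled SW480.

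**Figure D1:**
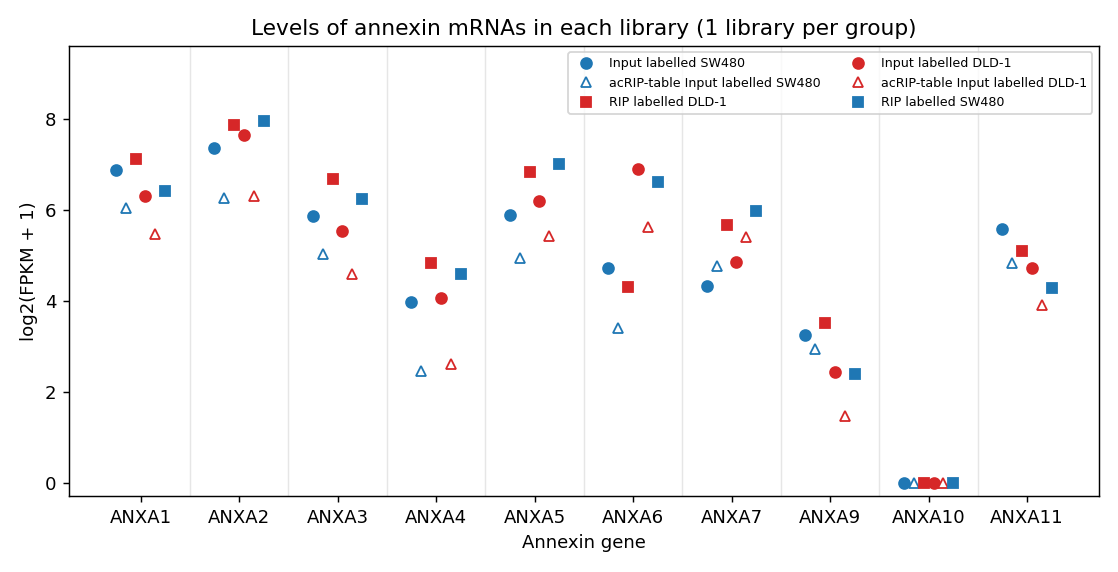
Level of each annexin mRNA, as log2(FPKM + 1), in the 4 libraries of the RIP table and the 2 Inputs of the acRIP table. Circles are Inputs, open triangles the same Inputs as given in the acRIP table, and squares NAT10 RIP libraries. Blue marks SW480 labels and red DLD-1 labels. ANXA2 is at the top in every library, ANXA10 is at 0 throughout, and ANXA6 is high in the Inputs labelled DLD-1 and the SW480-labelled RIP library.

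ANXA2 (ENSG00000182718, chr15:60347151-60397986, minus strand) encodes the annexin that joins with S100A10 and binds plasminogen activators at the cell surface. It stood at 162 FPKM in the Input labelled SW480 and 197 in the Input labelled DLD-1, and at 247 and 233 in the RIP libraries of these labels. It ranked 173 of 13604 detected protein-coding genes in the Input labelled SW480 and 136 of 14264 in that labelled DLD-1. Both RIP values were above both Input values. In the acRIP table the Inputs read 75.7 and 78.4 FPKM. The pseudogene ANXA2P2, a near-identical copy on chr9:33624225-33625534, was counted at 23.4% to 30.3% of the ANXA2 value in the 4 libraries of the RIP table and at 2.23% and 4.51% in the acRIP table. How reads were divided between the gene and its copy was not tested, and the level of ANXA2 is uncertain to that extent.

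ANXA1 (ENSG00000135046, chr9:73151865-73170393, plus strand) encodes a glucocorticoid-induced protein whose N-terminal peptides bind formyl peptide receptors. Its values were 117 FPKM in the Input labelled SW480, 78.4 in the Input labelled DLD-1, 84.1 in the SW480-labelled RIP library and 137 in the DLD-1-labelled one. The Input labelled SW480 and the RIP library labelled DLD-1 were thus the high pair. The acRIP table gave 64.7 (SW480) and 43.4 (DLD-1), in the same order as the Inputs of the RIP table. Its receptor genes were nearly silent, with FPR1 at no more than 0.245 FPKM in any column and FPR2 at 0 in all.

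ANXA6 (ENSG00000197043, chr5:151100706-151157779, minus strand) encodes the long annexin with a duplicated core, which acts on cholesterol traffic and Ras signalling at the membrane. It differed most between the lines of all members. The Input labelled SW480 gave 25.4 FPKM and the Input labelled DLD-1 gave 117, whereas the RIP library labelled SW480 gave 96.5 and that labelled DLD-1 gave 18.8. In the acRIP table ANXA6 stood at 9.56 (SW480) and 47.8 (DLD-1). The high values were therefore in the Inputs labelled DLD-1 and the SW480-labelled RIP library.

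ANXA5 (ENSG00000164111, chr4:121667946-121696980, minus strand) encodes the phosphatidylserine-binding protein used to stain dying cells. It stood at 57.7 and 72.6 FPKM in the Inputs labelled SW480 and DLD-1, and at 127 and 113 in the RIP libraries. ANXA7 (ENSG00000138279, chr10:73375101-73414058, minus strand), also known as synexin, has a long tail that binds sorcin. It stood at 19.1 and 27.7 FPKM in the Inputs and at 61.8 and 49.5 in the RIP libraries. For both genes each RIP value was above each Input value of the same table. ANXA7 was the only member with lower Input values in the RIP table than in the acRIP table, where it read 26.2 (SW480) and 41.3 (DLD-1). Expressed as a ratio of the RIP table to the acRIP table, ANXA7 was at 0.732 and 0.671, whereas the other 8 detected members were between 1.27 and 3.29 and the median of protein-coding genes was 1.48 (SW480) and 1.54 (DLD-1).

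ANXA3 (ENSG00000138772, chr4:78551770-78610447, plus strand), a short annexin known from neutrophil granules, was at 56.8 and 44.9 FPKM in the Inputs labelled SW480 and DLD-1 and at 74.6 and 100.5 in the RIP libraries. ANXA4 (ENSG00000196975, chr2:69643808-69827112, plus strand), an annexin of secretory epithelia, was at 14.8 and 15.7 in the Inputs and at 23.2 and 27.4 in the RIP libraries. In the RIP table ANXA4 was the member whose 2 Inputs were closest to each other, and both ANXA3 and ANXA4 had each RIP value above each Input value. Here the Inputs of the acRIP table were lower, at 31.5 and 23.2 FPKM for ANXA3 and 4.50 and 5.09 for ANXA4. ANXA2, ANXA5 and ANXA7 also had each RIP value above each Input value of the RIP table. The share of all genes with this order was not counted.

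ANXA11 (ENSG00000122359, chr10:80150889-80205808, minus strand) encodes an annexin that tethers RNA granules to lysosomes. It was at 46.4 FPKM in the Input labelled SW480, 25.4 in the Input labelled DLD-1, 18.3 in the SW480-labelled RIP library and 33.15 in the DLD-1-labelled one. ANXA9 (ENSG00000143412, chr1:150977306-150995634, plus strand), an annexin with an altered calcium-binding core, was the lowest detected member in the RIP table, at 8.50, 4.38, 4.20 and 10.5 FPKM in the same order. Like ANXA1, both were high in the Input labelled SW480 and the RIP library labelled DLD-1 by comparison with the other library of each kind. The acRIP table gave 27.4 (SW480) and 13.9 (DLD-1) for ANXA11 and 6.72 and 1.77 for ANXA9. ANXA10 (chr4:168092537-168187736, plus strand), known from gastric mucosa and serrated lesions of the colon, was listed at 0 in all 6 columns.

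The neighbours of ANXA2 and ANXA1 were taken as the genes at the smallest Euclidean distance of log2(FPKM + 1) over the 4 libraries of the RIP table. For ANXA2 they were PHB2 (distance 0.182), ANP32B (0.254) and RPS19 (0.264), and for ANXA1 they were RPL38 (0.232), PSME1 (0.302) and PRKCSH (0.324). With 4 libraries this measure describes likeness in level as much as in pattern.

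Of the other annexin genes, ANXA8, ANXA8L1, ANXA13 and the pseudogene ANXA2P3 did not exceed 0.401 FPKM in any column. The pseudogene ANXA2P1 reached 2.70 FPKM in the acRIP-table Input labelled DLD-1 and at most 0.222 elsewhere. ANXA8 and ANXA8L1 are near-identical copies, and reads may be split between them. The 10 members thus held nearly all of the annexin RNA of these lines, apart from the reads assigned to ANXA2P2.

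The first comparison asked how the lines differed before precipitation. On the scale of log2((FPKM + 1) / (FPKM + 1)), SW480 over DLD-1, ANXA6 was at -2.16, that is 4.48-fold higher in the Input labelled DLD-1. This rested on 963 against 4109 reads, and its counting error (SE) was 0.05. ANXA11 at 0.84 ± 0.05, ANXA9 at 0.82 ± 0.14 and ANXA1 at 0.57 ± 0.04 were higher in the Input labelled SW480 by less than 2-fold. The other 5 members lay between -0.51 (ANXA7) and 0.33 (ANXA3). All errors of this kind cover the counting of reads only and say nothing of the spread between cultures.

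At a threshold of 2-fold, 0 of 9 members were higher in the Input labelled SW480, against 13.1% of the 15931 genes with a mean of at least 1 FPKM, and 1 of 9 (ANXA6) was lower, against 18.5%. The median of the members was -0.08 and that of all genes -0.07. In the acRIP table ANXA6 was at -2.21, 4.62-fold higher in DLD-1, and ANXA9 at 1.48, which was 2.78-fold higher in SW480. No member had opposite signs in the Inputs of the 2 tables (0 of 9), whereas 14.2% of 13688 genes had. Both tables quantify the same Inputs.

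The same contrast in the NAT10 RIP libraries had the opposite sign for most members. ANXA6 was at 2.30 ± 0.04, thus 4.92-fold higher in the RIP library labelled SW480, on 7412 against 1229 reads. ANXA9 was at -1.14 ± 0.10, ANXA11 at -0.82 ± 0.04 and ANXA1 at -0.69 ± 0.03, and these 3 genes were lower in the RIP library labelled SW480. The other 5 members lay between -0.42 (ANXA3) and 0.31 (ANXA7). By the 2-fold threshold 1 of 9 members (ANXA6) was higher in the RIP library labelled SW480, against 12.8% of 13827 genes, and 1 of 9 (ANXA9) was lower, against 8.69%.

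Set side by side, the sign of SW480 over DLD-1 in the Inputs and in the RIP libraries was opposite for 8 of 9 members, ANXA4 being the exception, and for 78.6% of 12698 genes. The annexins thus followed a reversal that most genes of these libraries showed. Whether labels were exchanged, or whether NAT10 binding differed between the lines, cannot be told apart from 1 library per group.

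**Figure D2:**
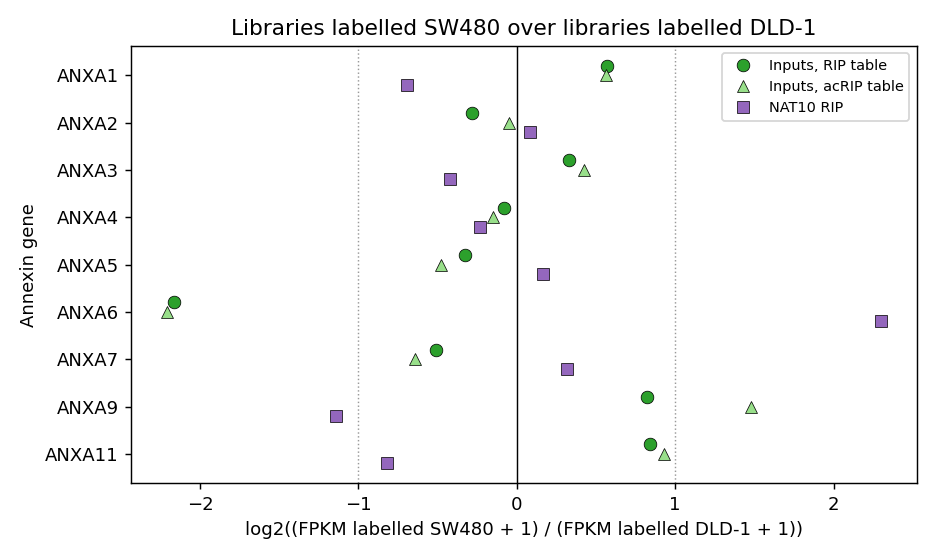
Level in the libraries labelled SW480 over those labelled DLD-1 for the 9 detected annexins, on a log2 scale with 1 added to each FPKM; circles are the Inputs of the RIP table, triangles the Inputs of the acRIP table and squares the NAT10 RIP libraries, each point 1 pair of libraries, and dotted lines mark 2-fold. ANXA6 lies at -2.16 and -2.21 in the Inputs and at 2.30 in the RIP libraries.

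The RIP library was then set over the Input of the same label, in log2 with 1 added to each FPKM. Genes at 1 FPKM or more in the Inputs of both lines were used. No control immunoprecipitate was among the 6 libraries, so the ratio does not measure NAT10 binding alone. Under the SW480 labels ANXA6 was at 1.88 ± 0.05 (3.69-fold higher in the RIP library), ANXA7 at 1.64 ± 0.06 (3.12-fold) and ANXA5 at 1.12 ± 0.04 (2.18-fold). ANXA11 was at -1.29 ± 0.04, 2.45-fold lower in the RIP library. ANXA9 at -0.87 ± 0.12 and ANXA1 at -0.47 ± 0.03 were also below 0. ANXA4 (0.62), ANXA2 (0.61) and ANXA3 (0.39) were above 0 by less than 2-fold.

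Accordingly 3 of 9 members were at least 2-fold higher in the RIP library labelled SW480, against 15.6% of 12324 genes, and 1 of 9 was at least 2-fold lower, against 16.0%. The median of the members was 0.61, while that of all genes was 0.05 and that of protein-coding genes 0.18. With 9 members these shares rest on single genes.

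Under the DLD-1 labels ANXA3 at 1.14 ± 0.04 (2.21-fold) and ANXA9 at 1.09 ± 0.13 (2.13-fold) were past 2-fold, and ANXA6 was at -2.58 ± 0.04, 5.97-fold lower in the RIP library. ANXA7 (0.81), ANXA1 (0.80), ANXA4 (0.76), ANXA5 (0.63), ANXA11 (0.37) and ANXA2 (0.24) were above 0 by less than 2-fold. So 2 of 9 members were at least 2-fold higher, against 15.1% of genes, and 1 of 9 was at least 2-fold lower, against 19.2%. The median of the members was 0.76, while that of all genes was -0.05.

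With the Inputs of the RIP table no member passed 2-fold in the same direction under both labels, whereas ANXA4 was at 1.66 and 1.68 over the scaled same-label Inputs of the acRIP table. The ratios of ANXA1, ANXA6, ANXA9 and ANXA11 had opposite signs under the SW480 and DLD-1 labels, which makes 4 of 9 members, against 43.6% of 12324 genes. The remaining members, ANXA2, ANXA3, ANXA4, ANXA5 and ANXA7, were above 0 under both. The shares of all genes above 0 under both, and past 2-fold in the same direction under both, were not counted. Over the scaled same-label Inputs of the acRIP table ANXA7 was at 0.66 and -0.36, while ANXA2, ANXA3, ANXA4 and ANXA5 stayed above 0.

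Over the other-label Input, the RIP ratios of both libraries came close to each other. ANXA7 was at 1.13 ± 0.05 for the RIP library labelled SW480 (2.19-fold) and at 1.33 ± 0.06 for that labelled DLD-1 (2.51-fold), and with these Inputs it was the only member past 2-fold in both. This rested on the Inputs of the RIP table. Over the scaled other-label Inputs of the acRIP table ANXA7 was at -0.043 and 0.35. There ANXA2 (1.024 and 1.051), ANXA3 (1.04 and 1.09) and ANXA4 (1.45 and 1.89) were past 2-fold in both. Over these acRIP-table Inputs 1423 of 12324 genes were at least 2-fold higher for the RIP library labelled SW480, and 1480 for that labelled DLD-1. The share of all genes past 2-fold in both libraries was not counted, with either set of Inputs. Over the other-label Inputs of the RIP table ANXA5 was at 0.80 and 0.96, ANXA3 at 0.72 and 0.81, and ANXA4 at 0.53 and 0.85. ANXA2 was at 0.32 and 0.53 and ANXA1 at 0.10 and 0.23. ANXA6, which had spanned the widest range under the same labels, was at -0.28 ± 0.03 and -0.41 ± 0.06, and ANXA11 at -0.45 ± 0.05 and -0.47 ± 0.04. Only ANXA9, the member with the fewest reads, had opposite signs, at -0.05 ± 0.14 and 0.27 ± 0.10.

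In counts, 1 of 9 members was at least 2-fold higher in the RIP library labelled SW480 over the other Input, against 9.24% of genes, and 0 of 9 lower, against 11.7%. For the RIP library labelled DLD-1 it was 1 of 9 higher, against 9.36%, and 0 of 9 lower, against 11.8%. Opposite signs were seen for 1 of 9 members and for 18.3% of genes. The ratios of both lines were closer over the other-label Input for 8 of 9 members, ANXA4 being the exception, and for 74.0% of genes. The median distance between the ratios of the lines was 0.83 for the members over the same label and 0.16 over the other label, while over all genes it was 0.76 and 0.28. Both readings use the same 4 libraries and are no independent evidence of each other.

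**Figure D3:**
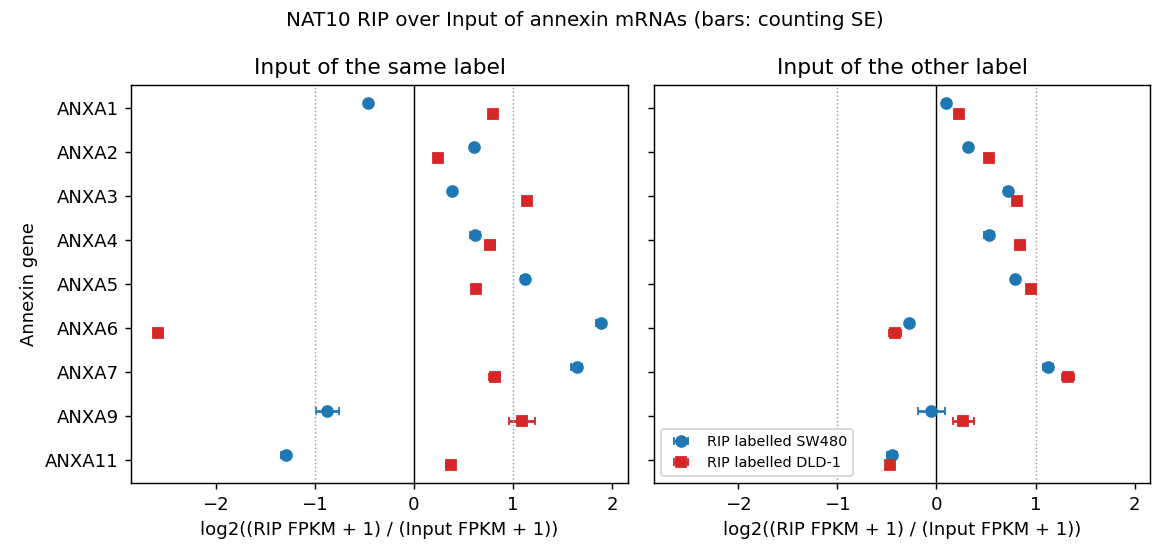
NAT10 RIP over Input of the 9 detected annexins, on a log2 scale with 1 added to each FPKM, with the Input of the same label on the left and that of the other label on the right; blue circles are the RIP library labelled SW480, red squares that labelled DLD-1, bars the counting SE and dotted lines 2-fold. ANXA6 lies at 1.88 and -2.58 on the left and at -0.28 and -0.41 on the right. ANXA2, ANXA3, ANXA4, ANXA5 and ANXA7 lie to the right of 0 in both panels.

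Proteins known to work with annexins were described from a list of 22 genes (S100 ligands, sorcin, calpains, ESCRT adaptors, receptors and copines), of which 15 passed the filter on the Inputs. Under the SW480 labels 3 of 15 (SRI, S100A4, CPNE1) were at least 2-fold higher in the RIP library and 2 (AHNAK, CAPNS1) lower, against 15.6% and 16.0% of all genes. Under the DLD-1 labels 3 (S100P, S100A10, S100A6) were higher and 3 (CAPNS1, S100A11, S100A4) lower, against 15.1% and 19.2%, so that these counts stood near the background. CAPNS1, the small subunit of calpain, was thus lower under both labels (-1.38 and -1.06), and over the other-label Input it was at -1.21 and -1.22. With the acRIP-table Inputs CAPNS1 was not past 2-fold, at -0.55 and -0.24 over the same label and at -0.39 and -0.40 over the other. SRI, which encodes sorcin, a calcium-binding ligand of ANXA7, was at 1.71 and 2.30 over the other-label Input. Over the scaled other-label Inputs of the acRIP table SRI was at 1.505 and 2.399.

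S100A10, the ligand of ANXA2, did not follow the flat profile of ANXA2. It was at 213 FPKM in the Input labelled SW480, 102 in the Input labelled DLD-1, 129 in the SW480-labelled RIP library and 367 in the DLD-1-labelled one. S100A6, a ligand of ANXA11, stood at 231, 106, 182 and 427 FPKM in the same order, and S100A11, a ligand of ANXA1, at 199.9, 395, 191 and 112. S100A10 and S100A6 were high in the Input labelled SW480, as ANXA1 and ANXA11 were, while S100A11 was high in the Input labelled DLD-1. S100A4, a ligand with motility functions, crossed over like ANXA6, with log2 ratios of 4.13 and -4.37 under the SW480 and DLD-1 labels and of -0.47 and 0.23 over the other-label Inputs.

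The ac4C peaks are regions where the authors found more acRIP than Input reads, called in each line separately, and their fold is the authors' enrichment of acRIP over Input. In SW480, 5 of the 9 detected members carried 7 of 9536 peaks, and in DLD-1, 6 members carried 11 of 13964. Members with a peak in both lines were ANXA1, ANXA2, ANXA5, ANXA7 and ANXA11, and ANXA3 carried a peak in DLD-1 alone. No peak was listed on ANXA4, ANXA6, ANXA9 or ANXA10 in any list. Of the genes that both acRIP-table Inputs list above 0, 36.7% carried a peak in SW480 and 40.2% in DLD-1. Among those at 1 FPKM or more, as all 9 members were, the shares were 45.6% and 50.7%, so that the counts of 5 and 6 of 9 stood near the background.

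The members with a peak in SW480 had Inputs of 26.2 to 75.7 FPKM in the acRIP table. ANXA3, at 31.5 FPKM, lay within that range without a peak. In DLD-1 members with a peak had 13.9 to 78.4 FPKM, and ANXA6, at 47.8, lay within that range without one. These are Inputs of the same label, and in the Input labelled SW480 ANXA6 was at 9.56. Whether the acRIP libraries pair with the Inputs by label was not tested. ANXA4 and ANXA9 were at 6.72 FPKM or less in both lines.

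ANXA1 had the highest folds of the family. Its 3′ UTR peak lay at chr9:73169020-73170363 in SW480, with a fold of 238, and at chr9:73168990-73170363 in DLD-1, with a fold of 251. These folds stood at the 95.6 and 98.5 percentiles of their lists. In DLD-1 a further peak of 6 blocks, at chr9:73159866-73165267 in the coding sequence, had a fold of 23.6. A peak consisting of several blocks is one that spans introns. The list called on the pooled libraries gave ANXA1 another coding peak, at chr9:73158503-73159449 with a fold of 12.5, which was in neither list of a single line.

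On ANXA2 the peak at chr15:60347373-60351321 in SW480 (fold 16.2) and at chr15:60347373-60351410 in DLD-1 (fold 13.2) shared 570 bases, and the authors place it in exons. A further peak in SW480, at chr15:60357223-60362630 over 4 blocks, had a fold of 1.83, at the 0.231 percentile of its list. ANXA2 was thus the most abundant annexin but had moderate folds. On ANXA3 the DLD-1 peak lay at chr4:78604256-78610331 and had a fold of 43.5.

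On ANXA5 the 3′ UTR peak lay at chr4:121668014-121669334 in SW480 with a fold of 7.98 and at chr4:121668074-121669482 in DLD-1 with a fold of 52.2. The next peak on ANXA5, at chr4:121669631-121671602 in DLD-1, lay in the coding sequence (fold 16.9). Of the shared peaks, that of ANXA5 differed most in fold between the lines. Folds were called separately per library, however, and the depth of the acRIP libraries is unknown, so the difference has no error.

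ANXA7 had 1 coding peak in SW480, at chr10:73379928-73380153 with a fold of 35.4. In DLD-1 it lay within a longer coding peak at chr10:73378953-73383245 with a fold of 26.9, beside a coding peak at chr10:73396108-73397216 (8.65) and a 3′ UTR peak at chr10:73375727-73375965 (7.08). ANXA11 had 3′ UTR peaks at chr10:80155595-80156479 in SW480 (fold 33.2) and chr10:80155655-80156479 in DLD-1 (fold 23.5). A small 3′ UTR peak at chr10:80154995-80155175 in SW480 (8.33) was the only member peak whose listed false discovery rate (FDR) was above 0.05, and a coding peak at chr10:80161967-80163595 in DLD-1 had a fold of 2.80. ANXA7 was the member with most peaks in DLD-1.

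**Figure D4:**
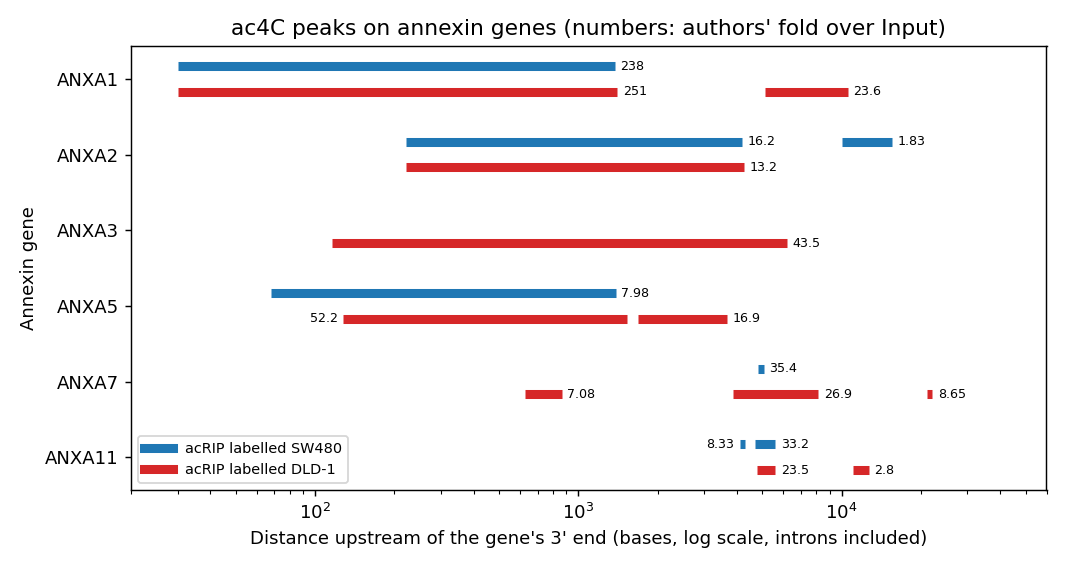
Span of each ac4C peak on the 6 annexin genes that carried one, as distance in bases upstream of the 3′ end of the gene on a log axis with introns included; blue bars are from the acRIP library labelled SW480, red bars from that labelled DLD-1, and the number beside a bar is the authors' fold over Input. On ANXA1, ANXA2, ANXA5, ANXA7 and ANXA11 a blue and a red bar coincide, with folds of 238 and 251 on ANXA1.

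In all, 5 of 7 annexin peaks in SW480 shared at least 1 base on the same strand with a DLD-1 peak, against 55.3% of all peaks in SW480, and 5 of 11 in DLD-1 shared one with SW480, against 36.5%. By position, 4 of 7 and 4 of 11 lay in the 3′ UTR, against 53.0% and 41.5%. Peaks with more than 1 block made up 6 of 7 and 10 of 11 of the annexin peaks, against 27.9% of all peaks in SW480 and 41.1% in DLD-1. The annexin peaks were longer as well, with a median of 420 bases in SW480 and 389 in DLD-1, where all peaks had medians of 210 and 211. Their median folds were 16.2 and 23.5, where all peaks had 19.5 and 14.6. These comparisons with the lists were not tested, since peaks of 1 gene are not independent.

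The lists give for each peak the sites of a motif, 12 bases long and made of 4 Cs that are each followed by any 2 bases. At least 1 site was listed for 3 of 7 annexin peaks in SW480, against 56.2% of all peaks, and for 7 of 11 in DLD-1, against 55.1%. The ANXA1 3′ UTR peaks, with the highest folds of the family, and all peaks of ANXA7 held no listed site. The ANXA5 3′ UTR peak held 3 listed sites in both lines. Its listed positions, 121669270, 121669208 and 121669187 on chromosome 4, lay in no block of the peak in either line. The same was true of 6 of 8 sites listed for annexin peaks of more than 1 block on the minus strand in SW480 and of 4 of 9 in DLD-1. It was also true of most such sites in the whole lists, where 48.6% and 45.1% lay in a block, whereas on the plus strand and in single-block peaks all did (100%). Site counts for ANXA2, ANXA5, ANXA7 and ANXA11, which lie on the minus strand, are therefore uncertain, also where no site was listed.

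ANXA8 was at 0 FPKM in the DLD-1-labelled Input of both tables. It was at 0.189 in the RIP-table Input labelled SW480 and 0.146 in the RIP library labelled DLD-1. Peaks were also listed for ANXA8. They lay at chr10:47468241-47468509 (3′ UTR, fold 39.3), chr10:47468838-47472179 (coding, fold 22.0) and chr10:47474951-47477765 (coding, fold 77.1), all in DLD-1. The pseudogene ANXA2P2 carried 1 peak in DLD-1, at chr9:33624514-33624634 with a fold of 8.65. ANXA8 and ANXA2P2 each have near-identical copies, and the part of reads from related genes under these peaks was not tested.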

How the data were processed

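RNA of 6 libraries from SW480 and DLD-1 (Input, NAT10 RIP and acRIP, 1 library per group) was grouped by sample title. Sequencing and analysis were done by a provider, and the submitters' processing notes name cutadapt 2.5 and HISAT2 2.1.0. The counting tool, its use of strand and the peak caller are not given in the sources used here. The authors deposited FPKM values for RIP and Input, and Inputs of the acRIP table, whose unit they do not name and which were read as FPKM. The authors' RIP/Input ratio columns were not used. The deposited peak lists give a fold, a p-value, scores (base-10 logarithms of p and FDR, spreadsheet errors taken as below 0.05) and a count of motif sites per peak. Motif results rest on these listed sites, since no sequence was searched. Coordinates are GRCh38, and listed starts were moved by 1 base.

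Ratios were log2((FPKM + 1) / (FPKM + 1)), and this scale shrinks the differences of low genes. A call needed 2-fold, among genes at 1 FPKM or more in both Inputs (RIP over Input) or on average over the compared libraries (between lines). Whole reads were recovered from the FPKM steps for 23477 of 23515 genes above 0 in at least 2 columns (relative tolerance 9e-08). They are the smallest numbers that give the values, so counting errors are upper limits, and they cover counting error only, since PCR copies are not independent molecules. Relative to the RIP library labelled SW480, depths were 0.493 (Input labelled SW480), 0.850 (RIP labelled DLD-1) and 0.456 (Input labelled DLD-1). Recovery of reads was tested on simulated data. All 10 members are named with their values. Of 22 partner genes, S100A10, S100A11, S100A6 and those past 2-fold under both labels are given with values, together with FPR1, FPR2 and SRI, which were added after their values were seen. The members and lists were chosen with earlier results of these data known. Alternatives were another pseudocount, no filter, centring, other Inputs, stricter peaks and overlap. Python 3.11.15, numpy 2.4.6, pandas 2.3.3 and matplotlib 3.10.9 were used.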

Additional observations from a re-analysis of the deposited data

Results flagged for a closer look

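For 4 annexins the NAT10 RIP library lay above its Input under one label and below it under the other, as it did for 43.6% of 12324 genes, so that 4 of 9 members stood near the background. The log2 ratio under the SW480 labels minus that under the DLD-1 labels was 4.46 for ANXA6, -1.26 for ANXA1, -1.96 for ANXA9 and -1.66 for ANXA11. With 1 library per group the difference was not tested, and exchanged labels and a difference between the lines cannot be told apart. Over the other-label Input the same differences were 0.13 (ANXA6), -0.13 (ANXA1), -0.32 (ANXA9) and 0.02 (ANXA11).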

How the results depend on the processing

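Counts of members past 2-fold depended mainly on which Input was used. For the RIP library labelled SW480, 3 members were higher, which became 1 (ANXA7) over the other-label Input, 2 (ANXA6, ANXA7) when centred and 4 (ANXA2, ANXA4, ANXA5, ANXA6) over the same-label acRIP-table Input, while over the other-label acRIP-table Input the count was again 3 but none of the genes was shared (ANXA2, ANXA3, ANXA4 in place of ANXA5, ANXA6, ANXA7). The 1 lower member became 2 with a pseudocount of 0.1, with ratios centred on protein-coding genes and over the acRIP-table Input of the same label (ANXA9 and ANXA11 in each), and 0 over either Input of the other label. For that labelled DLD-1, the 2 higher members became 1 over the other-label Input and 4 over either acRIP-table Input, and the 1 lower member became 0 over either Input of the other label. Higher members in the Input labelled SW480 went from 0 to 1 (ANXA9) with the acRIP-table Inputs, against 14.0% of 15556 genes. Under the SW480 labels the RIP ratio changed sign for ANXA6 (-0.28 from 1.88) and ANXA1 (0.10 from -0.47) over the other-label Input, and for ANXA7 (-0.043 from 1.64), ANXA1 (0.33) and ANXA9 (0.48 from -0.87) over the other-label acRIP-table Input. Under the DLD-1 labels it changed sign for ANXA11 (-0.47 from 0.37) over the other-label Input, for ANXA6 (0.39 from -2.58) and ANXA11 (-0.28) over the other-label acRIP-table Input, and for ANXA7 (-0.36 from 0.81) over the same-label acRIP-table Input. The cause was not tested. In number, though not always in genes, 33 counts stayed within 1.5 times, and 12 moved further. Counts without a filter are among the 33 but could not move, since all detected members passed the filter and ANXA10 was listed at 0. Genes with a peak stayed at 5 (SW480) and 6 (DLD-1) under an FDR below 0.05 and under p-values up to the list's median. Shared peaks went from 5 to 4 when 50% of each peak had to be shared, and peaks with a motif site from 10 to 8 when sites had to lie in a block, a choice made after seeing the data. The motif search with a 9-base pattern or on the opposite strand was not run, since no genome was used here. No paired analysis was possible because each group held 1 library, and for the same reason no library could be left out.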

Other observations

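In the list called on the pooled libraries the 6 annexin genes carried 12 peaks with a median fold of 11.8, where all 15622 peaks had a median of 13.6, and the ANXA1 3′ UTR peak had a fold of 225 there.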
